A study of Homo sapiens with 4 samples.

Results

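The genes of human chromosome 18 were compared by arm and by position in spheroids of 4 colon cell lines, with 1 library per line. The members were the rows of the deposited gene table that lie on this chromosome, without names that start with LINC, XLOC, NDUF, ATP5 or RPL and without a short list of further genes that are not reported here. Of 58740 rows in all, 1178 lay on chromosome 18, 103 were left out by name, and 1075 remained. The widest stretch that no row covers, 5616623 bases between positions 15330282 and 20946906 in hg38, was taken as the boundary between the arms, which placed 335 members on the short arm and 740 on the long arm. A mean of 1 FPKM or more over the 4 libraries was reached by 53 of the short-arm and 127 of the long-arm members, 16.7% of all members, beside 26.1% of all rows. FPKM are fragments per kilobase of transcript, scaled to the total of the library. The results below are on these 180 members unless stated otherwise. Another 895 members lay below the limit, and 511 of all members were listed at 0 in every library.

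HCEC-1CT are non-cancerous human colon cells immortalized by introducing CDK4 and TERT. HCT116 and DLD-1 are colorectal carcinoma lines known for deficient mismatch repair and near-diploid chromosome sets. SW620 is a carcinoma line from a metastasis in a lymph node and is known for chromosomal instability. The labels give the genotype of every line as WT and the cell type as epithelial. All were grown for 7 days in low-attachment plates of 24 wells with 10% fetal bovine serum, with no treatment, and RNA was pooled from the spheroids of 2 plates. Each line is therefore a single culture of 1 cell line, and differences between lines cannot be told apart from differences between cultures.

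Loss of the long arm of chromosome 18 is among the common chromosome changes of colorectal cancer. The arm carries DCC, named after its deletion in colorectal carcinoma, and later work named PIGN, MEX3C and ZNF516 as genes on it that protect chromosome segregation. RNA levels follow gene dosage only loosely, and copy number was not analysed here.

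The spacing of low values in single-transcript genes corresponds to 23300000 to 29500000 fragments per library, so a 2 kb transcript at 1 FPKM was covered by 46.7 to 59.0 fragments. Over all 15326 genes at a mean of 1 FPKM or more, the median log2 ratio of HCT116, DLD-1 and SW620 to HCEC-1CT was 0.36, 0.37 and 0.29. Ratios called relative have the corresponding median subtracted. All log2 values are of FPKM plus a pseudocount of 1, so differences of weakly expressed genes appear smaller than they are. The labelled epithelial type was matched by its markers in the cancer lines only: the 6 epithelial markers summed to 7.29 FPKM in HCEC-1CT and to 1552, 5332 and 6701 FPKM in HCT116, DLD-1 and SW620. Of these markers 2, 6, 6 and 6 reached 1 FPKM. The 6 fibroblast markers summed to 998, 12.4, 0.0213 and 27.5 FPKM, and 6, 1, 0 and 2 reached 1 FPKM. The 3 endothelial markers summed to 5.45, 0.791, 2.56 and 15.8 FPKM and the 3 leukocyte markers to 9.41, 0.451, 0.409 and 0.231 FPKM. EPCAM, which defines epithelial cells, was listed at 0 in HCEC-1CT. Their part in the differences from HCEC-1CT was not tested. Every series of 4 values below is in this order of lines.

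The following stretches of promoter sequence belong to members that the results turn on. Each is the part of the 250 bases before a RefSeq start site (GRCh38.p14) that no row of the gene table covers, written 5′ to 3′ on the strand of the gene, with each CG dinucleotide in capitals. SS18 is the member from which the outer long arm, mostly low in SW620, is counted here. The SLC39A6 stretch is the gap that this gene shares with the head-to-head gene ELP2. CCDC68 was near 0 in SW620 only. CYB5A was highest in DLD-1, GREB1L in HCT116 and APCDD1 in SW620, and MYO5B was lowest in HCEC-1CT.
SS18 (chr18:26091220-26091469, minus strand): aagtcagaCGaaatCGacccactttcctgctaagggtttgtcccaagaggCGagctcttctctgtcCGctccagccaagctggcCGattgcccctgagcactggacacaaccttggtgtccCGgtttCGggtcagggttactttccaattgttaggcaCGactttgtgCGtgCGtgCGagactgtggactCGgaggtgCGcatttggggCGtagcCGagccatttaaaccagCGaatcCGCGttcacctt
SLC39A6 (chr18:36129386-36129443, minus strand): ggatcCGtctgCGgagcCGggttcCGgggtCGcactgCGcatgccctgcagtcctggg
CCDC68 (chr18:54959509-54959711, minus strand): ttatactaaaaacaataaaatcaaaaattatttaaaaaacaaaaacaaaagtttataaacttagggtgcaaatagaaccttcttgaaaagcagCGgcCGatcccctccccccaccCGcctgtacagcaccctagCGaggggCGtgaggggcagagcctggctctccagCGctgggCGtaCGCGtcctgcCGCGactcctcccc
CYB5A (chr18:74292017-74292213, minus strand): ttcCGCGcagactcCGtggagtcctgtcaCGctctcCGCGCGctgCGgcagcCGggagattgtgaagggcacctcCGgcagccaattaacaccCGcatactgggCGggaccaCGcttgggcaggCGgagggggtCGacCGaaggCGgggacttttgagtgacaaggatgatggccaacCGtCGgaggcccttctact
GREB1L (chr18:21241982-21242231, plus strand): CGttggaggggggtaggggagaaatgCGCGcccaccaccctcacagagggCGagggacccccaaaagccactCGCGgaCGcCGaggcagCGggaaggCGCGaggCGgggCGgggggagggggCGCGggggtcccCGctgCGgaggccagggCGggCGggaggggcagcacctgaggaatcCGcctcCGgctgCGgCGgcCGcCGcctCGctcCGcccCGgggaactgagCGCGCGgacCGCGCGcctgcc
APCDD1 (chr18:10454385-10454627, plus strand): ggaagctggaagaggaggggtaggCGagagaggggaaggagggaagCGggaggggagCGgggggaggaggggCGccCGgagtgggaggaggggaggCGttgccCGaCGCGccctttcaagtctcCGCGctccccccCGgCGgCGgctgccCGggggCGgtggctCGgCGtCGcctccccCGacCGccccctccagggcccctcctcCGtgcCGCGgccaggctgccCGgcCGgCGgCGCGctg
MYO5B (chr18:50195191-50195397, minus strand): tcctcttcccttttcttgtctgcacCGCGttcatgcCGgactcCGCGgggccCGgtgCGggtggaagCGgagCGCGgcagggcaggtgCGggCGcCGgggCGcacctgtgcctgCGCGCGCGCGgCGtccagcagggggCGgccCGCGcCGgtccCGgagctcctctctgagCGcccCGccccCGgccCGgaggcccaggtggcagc
The motif searched was CG, which reads the same on both strands. These stretches held 18, 6, 11, 19, 34, 29 and 29 CG dinucleotides, which is 7.20, 10.3, 5.42, 9.64, 13.6, 11.9 and 14.0 per 100 bases. Of 35116 promoter windows of 250 bases in the RefSeq table, 36.8%, 19.6%, 44.8%, 21.6%, 6.80%, 12.4% and 4.90% had as many per 100 bases or more, and 93.9% held at least 1. The windows were whole, while the stretches other than those of SS18 and GREB1L were cut to 58 to 243 bases. Their shares are therefore a rough guide, most of all for SLC39A6. Over the 153 protein-coding members at a mean of 1 FPKM or more, 127 had a promoter in that table, with a median of 24 CG per 250 bases. The median was 28 in 37 short-arm genes and 22 in 90 long-arm genes. Of all 12635 protein-coding genes at a mean of 1 FPKM or more, 9871 (78.1%) had a promoter in the table, with a median of 21. At least 10 CG were held by 85.6% of these and by 84.3% of the 127 members. Below 1 FPKM the median was 12 in members and 6 in all genes, but only 79.4% and 68.2% had a promoter there. Genes without a promoter in the table are missing from these medians. Of the 180 members, 131 were matched by symbol.

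Long-arm genes were lower in SW620 than in each of the other 3 lines by their medians. Short-arm genes were less low against HCEC-1CT and DLD-1, and not lower against HCT116. The median relative log2 ratio of the 127 long-arm genes was -0.77 for SW620 against HCEC-1CT, -0.69 against HCT116 and -0.91 against DLD-1. Among the other lines the long arm stood level: the median was 0.02 for HCT116 against HCEC-1CT, -0.01 for DLD-1 against HCEC-1CT and 0.04 for DLD-1 against HCT116. The 53 short-arm genes had medians of -0.27, 0.05 and -0.25 for SW620 against HCEC-1CT, HCT116 and DLD-1. For HCT116 against HCEC-1CT the short-arm median was -0.35, and for DLD-1 it was 0.09 against HCEC-1CT and 0.13 against HCT116. Of the long-arm genes, 94, 101 and 96 of 127 lay below the all-gene median of SW620 against HCEC-1CT, HCT116 and DLD-1. Single genes spread widely around these medians, with quartiles of -1.22 and -0.09 for the long arm in SW620 against HCT116. With a pseudocount of 5 the long-arm medians shrank to -0.44, -0.42 and -0.55. With 1 library per line no test was possible, and the comparisons of SW620 share its library.

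**Figure D1:**
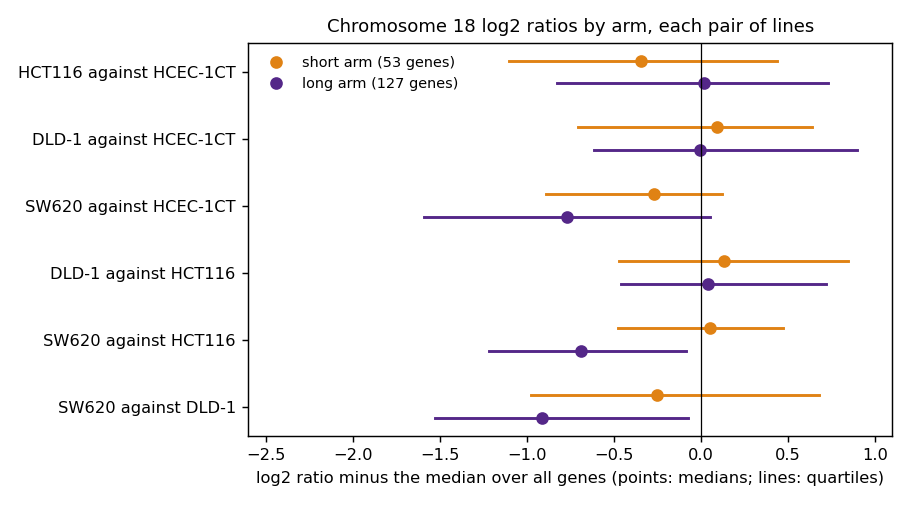
Log2 ratios of short-arm (53) and long-arm (127) genes for each pair of lines, minus the median over all genes; points are medians and lines join the quartiles. The long-arm medians of the 3 comparisons with SW620 lie at -0.77, -0.69 and -0.91, and those of the other 3 pairs lie between -0.01 and 0.04.

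In the summed levels SW620 was the lowest line on the long arm. Protein-coding members of the long arm held 0.458%, 0.410%, 0.549% and 0.240% of the FPKM of all nuclear protein-coding genes. Those of the short arm held 0.340%, 0.352%, 0.384% and 0.399%, with SW620 the highest. That order rests on the myosin light chain genes MYL12A and MYL12B: without them, an alternative chosen after the values were seen, the short-arm shares were 0.256%, 0.197%, 0.244% and 0.187%, with SW620 the lowest. The number of long-arm members at 1 FPKM or more was 118, 130, 130 and 103, and that of short-arm members 48, 50, 53 and 51. The median FPKM over the 127 long-arm genes was 6.17, 8.75, 10.6 and 4.42, and over the 53 short-arm genes 9.15, 10.7, 10.7 and 11.4.

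Against other chromosomes, chromosome 18 was the lowest in each comparison with SW620. Over all 206 rows of chromosome 18 at a mean of 1 FPKM or more, the names left out included, the median relative ratio of SW620 was -0.64 against HCEC-1CT, -0.48 against HCT116 and -0.76 against DLD-1. The next lowest of the 23 chromosomes with at least 100 such genes were chromosome 13 at -0.21, chromosome 8 at -0.38 and chromosome 4 at -0.36. The gap to the next chromosome was thus narrow against HCT116 and wide against the other lines. In the 3 pairs without SW620, chromosome 18 ranked 9, 15 and 20 from the lowest of 23, with medians of -0.10, 0.03 and 0.13.

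**Figure D2:**
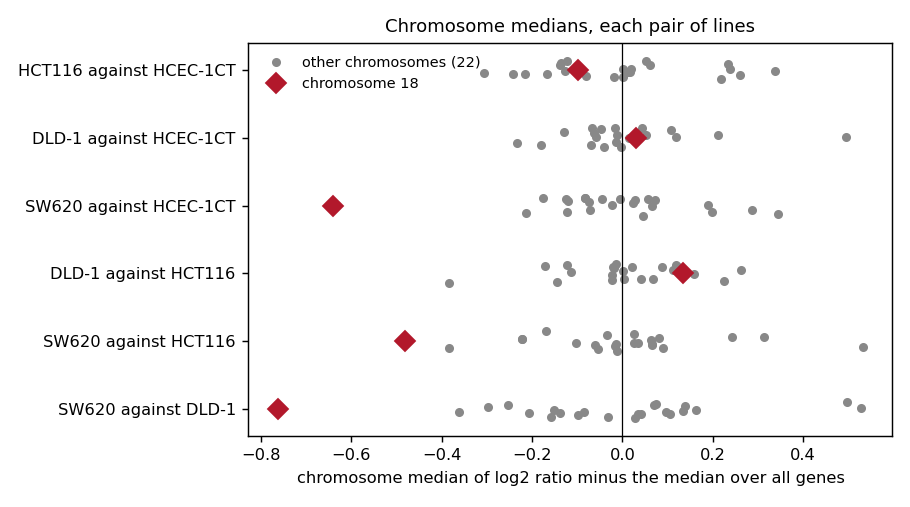
Median log2 ratio of each chromosome for each pair of lines, minus the median over all genes; diamonds are chromosome 18 and grey points the other 22 chromosomes, spread vertically for legibility. Chromosome 18 lies lowest in the 3 comparisons with SW620, at -0.64, -0.48 and -0.76, and within the other chromosomes in the rest.

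The low values of SW620 did not cover the long arm evenly. To compare lines along the chromosome, each gene's log2 level was set against its mean over the 4 lines and the median of that deviation over all genes was subtracted for each library. The deviations of a gene sum to about 0, so a low line raises the others. In blocks of 21 or 22 neighbouring long-arm genes, the median deviation of SW620 was -0.08 in the block nearest the centromere (ROCK1 to TAF4B, starts at 20.9 to 26.2 Mb). In the 5 blocks further out it was -0.62, -0.51, -0.79, -0.84 and -0.80. In the block at -0.84, which holds the serpin genes, HCEC-1CT stood at 1.26 and HCT116 and DLD-1 also lay below 0, at -0.36 and -0.20, and SW620 was relatively below both of them in 11 of 21 genes. The 2 short-arm blocks stood at -0.37 and -0.17, and SW620 was uneven within the first. In the 12 genes before LPIN2 its median deviation was -0.57, and it was relatively below both HCT116 and DLD-1 in 8. In the 8 genes from LPIN2 to DLGAP1-AS2 the median was 0.64, with SW620 relatively above both in 7. In the 33 short-arm genes after these it was -0.16, with SW620 relatively below both in 14. These dividing points were not set in advance. SW620 had the lowest deviation of the 4 lines in 70 of 127 long-arm and 20 of 53 short-arm genes, or 55.1% and 37.7%, beside 21.7% of all genes. HCEC-1CT, HCT116 and DLD-1 were lowest in 24, 11 and 22 long-arm genes, beside 26.9%, 23.7% and 27.7% of all genes.

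**Figure D3:**
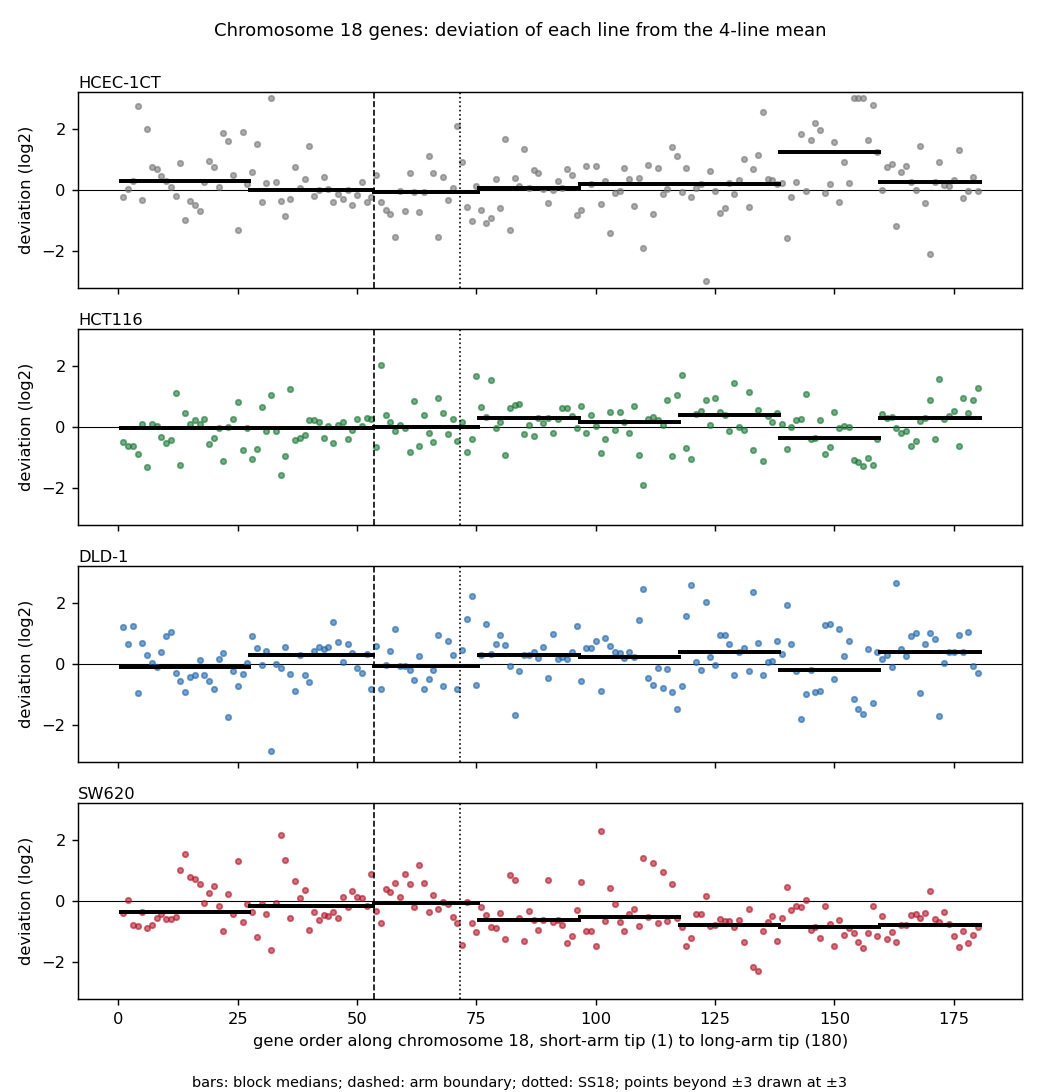
Deviation of each line from the mean of the 4 lines (log2, all-gene median subtracted) for 180 genes in chromosomal order; black bars are medians of blocks of 21 to 27 neighbours, the dashed line is the arm boundary and the dotted line is SS18. SW620 lies near 0 up to SS18 on the long arm and at -0.51 to -0.84 in the 5 outer blocks, while HCEC-1CT reaches 1.26 in the block with the serpin genes.

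The dividing point was set between ZNF521 and SS18, at about 26.0 Mb, after the values were seen. The counts on either side therefore describe the split and cannot test its position. ZNF521 was listed at 0 in both DLD-1 and SW620, and IMPACT, the member before it, was already lowest in SW620. The exact place of the change is thus not resolved. Before SS18, SW620 was relatively lower than both HCT116 and DLD-1 in 2 of 18 genes. From SS18 to the end of the arm this held in 82 of 109, or 75.2%, beside 30.8% of all genes. It was relatively higher than both in 6 of the 18 and in 8 of the 109. Relative to the mean of HCT116 and DLD-1, SW620 was lower in 32 of 53 short-arm and 106 of 127 long-arm genes, beside 51.7% of all genes. The median deviation of SW620 was 0.04 before SS18 and -0.68 from it on, or -0.39 from it on with a pseudocount of 5. Among the 73 outer genes with at least 1 FPKM in all 4 lines, the median FPKM ratio without a pseudocount was 0.478 to HCT116, 0.388 to DLD-1 and 0.601 to HCEC-1CT. Over all 10409 such genes these ratios were 0.929, 0.921 and 1.23. Relative to them the outer genes stood at 0.514, 0.421 and 0.489. The 15 such genes before SS18 stood at 1.09, 1.16 and 1.19, and the 37 on the short arm at 1.06, 0.914 and 0.830.

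**Figure D4:**
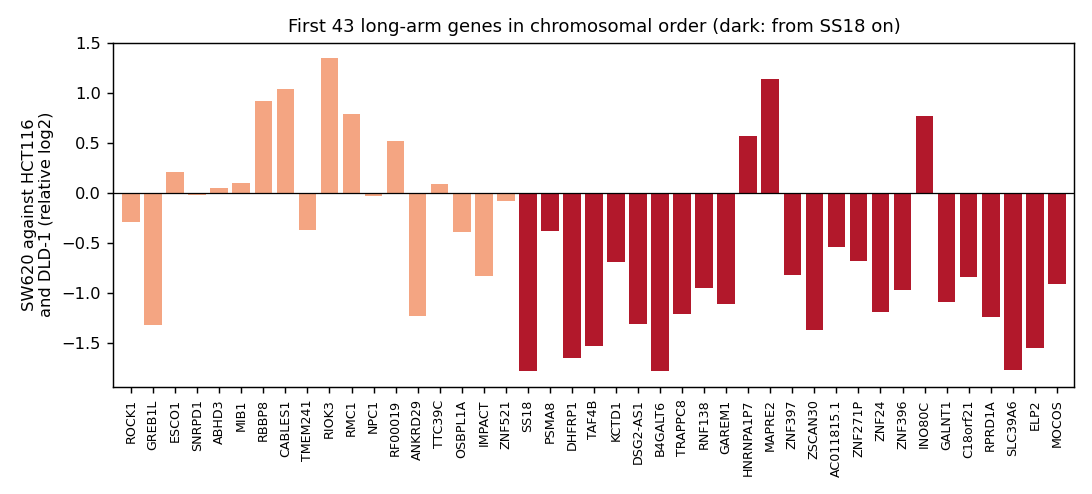
Relative log2 ratio of SW620 against HCT116 and DLD-1 (mean of the 2 ratios) for the first 43 long-arm genes in order from the centromere; dark bars start at SS18. From SS18 on 3 of the 25 bars shown are above 0.

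The outer part of the long arm, delimited after the values were seen, was low in SW620 across kinds of genes. The medians of its subsets therefore describe this part and do not test it. The median deviation was -0.61 in the 54 outer genes with a mean below 7.78 FPKM and -0.80 in the 55 at or above it. It was -0.81 in the 54 genes shorter than 52442 bases and -0.64 in the 55 longer ones. The 95 protein-coding genes had -0.75 and the 14 of other types -0.45, and genes on the plus and minus strand had -0.64 and -0.80. Restricting to the 73 genes at 1 FPKM or more in every line gave -0.70, with 61 of 73 relatively lower than in both HCT116 and DLD-1.

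The 18 long-arm genes nearest the centromere were mixed in SW620, with 9 relatively below the mean of HCT116 and DLD-1. RIOK3, an atypical protein kinase, stood at 14.3, 20.4, 39.0 and 69.2 FPKM, highest in SW620. RBBP8, the DNA end resection factor CtIP, stood at 6.45, 14.0, 14.1 and 25.9 FPKM. CABLES1, which binds cyclin-dependent kinases, stood at 5.09, 2.02, 3.79 and 6.38 FPKM. In FPKM, SW620 was the highest line for each of these 3. MIB1, a ubiquitin ligase for Notch ligands, varied little, at 15.3, 21.7, 19.7 and 20.9 FPKM. The innermost member ROCK1, a kinase of the actomyosin skeleton, stood at 14.2, 8.01, 20.4 and 9.69 FPKM, highest in DLD-1; a pseudogene copy, ROCK1P1, can share its reads. ESCO1, which acetylates cohesin, stood at 6.01, 18.2, 13.2 and 16.96 FPKM, low in HCEC-1CT only. NPC1, which exports cholesterol from lysosomes, stood at 58.1, 30.2, 24.7 and 25.2 FPKM. Other genes of this stretch were lower in SW620: ANKRD29 stood at 1.014, 13.4, 13.7 and 4.86 FPKM. IMPACT, a regulator of translation under stress, stood at 8.32, 13.0, 13.4 and 6.53 FPKM, lowest in SW620.

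From SS18 outward the lowest value was mostly that of SW620. SS18, a subunit of the BAF chromatin remodelling complex (chromosome 18, 26016253 to 26091217, ENSG00000141380), stood at 29.3, 22.2, 27.9 and 6.13 FPKM, with the other 3 lines close together. PIK3C3, the lipid kinase of autophagy, stood at 16.0, 12.2, 20.7 and 3.40 FPKM (41955206 to 42087830, ENSG00000078142). SOCS6, a suppressor of cytokine signalling, stood at 11.9, 11.0, 11.2 and 2.97 FPKM (70288901 to 70330200, ENSG00000170677). In each of these 3 genes the other lines differed from each other by less than SW620 differed from any of them. TAF4B, a subunit of a TFIID variant, stood at 1.95, 10.1, 1.24 and 0.627 FPKM, with HCT116 far above the rest. FECH, which makes haem from protoporphyrin, stood at 5.72, 9.44, 12.1 and 1.93 FPKM, and POLI, a translesion DNA polymerase, at 9.72, 5.48, 9.03 and 1.55 FPKM. RBFA, a ribosome assembly factor of mitochondria near the end of the arm, stood at 4.71, 9.46, 15.1 and 1.82 FPKM. The outermost member PARD6G, a polarity protein, stood at 1.02, 5.47, 1.24 and 0.402 FPKM.

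A 2-fold limit gave 28 long-arm genes and 0 short-arm genes that were lower in SW620 than in both HCT116 and DLD-1, beside 5.33% of all genes. Of the 28, 18 were also 2-fold or more below HCEC-1CT, beside 2.17% of all genes, which is 14.2% of the long arm. For HCT116 and DLD-1 the corresponding counts of long-arm genes 2-fold below each other line were 0 and 2, beside 1.57% and 2.63% of all genes. In the other direction, HCEC-1CT stood 2-fold or more above each other line in 16 members, HCT116 did so in 13, DLD-1 in 23 and SW620 in 3, beside 6.22%, 5.18%, 7.15% and 4.76% of all genes. The 18 genes that were low in SW620 lie at SS18 and beyond. They include the zinc finger genes ZSCAN30 and ZNF24, the SUMO ligase PIAS2, the sphingolipid enzyme KDSR and the mitochondrial import gene TIMM21.

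Neighbours that start head to head within 1000 bases were set side by side. ELP2, a subunit of the Elongator complex, and SLC39A6, a zinc importer, start 59 bases apart on opposite strands, at 36129444 and 36129385. ELP2 stood at 21.0, 24.9, 25.8 and 7.51 FPKM and SLC39A6 at 38.0, 47.7, 35.4 and 10.7 FPKM. Both were level in 3 lines and low in SW620. The pair PIGN and KIAA1468, with starts 137 bases apart, was high in DLD-1. PIGN, which modifies the lipid anchor of surface proteins, stood at 3.68, 2.52, 14.98 and 4.42 FPKM. KIAA1468 stood at 6.81, 4.56, 21.0 and 3.91 FPKM. The short-arm pair RNMT, the messenger RNA cap methyltransferase, and FAM210A showed no low value in SW620. RNMT varied little and stood at 18.1, 20.2, 16.5 and 20.1 FPKM, and FAM210A at 8.21, 15.1, 11.6 and 12.7 FPKM. In the other short-arm pair, PSMG2 and SPIRE1, SW620 was the lowest line for both genes. PSMG2 stood at 20.4, 26.7, 39.6 and 17.4 FPKM and SPIRE1 at 18.4, 13.6, 25.6 and 11.8 FPKM. The members of a pair did not always follow each other. MIB1 was level while its partner ABHD3 stood at 1.58, 7.85, 20.6 and 12.5 FPKM, lowest in HCEC-1CT. In all, 8 such pairs of protein-coding genes were found. Without knowledge of strand in the libraries, reads from overlapping first exons cannot be assigned to one partner.

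Of the 13 genes discussed for loss of the long arm, 12 reached the limit, and SW620 had the lowest deviation in 7 of them, close to the 55.1% of the whole long arm. DCC, the netrin receptor, was listed at 0 in all 4 lines. CXXC1, which binds unmethylated CG, stood at 11.9, 32.1, 15.9 and 8.30 FPKM, and the methyl-CG binding genes MBD1 and MBD2 at 17.9, 15.9, 18.1 and 7.60 FPKM and 10.8, 11.3, 15.4 and 6.45 FPKM. SW620 was the lowest in each. ME2, the malic enzyme of mitochondria, stood at 2.85, 8.71, 13.4 and 3.50 FPKM, with HCEC-1CT lower still. MEX3C, an RNA-binding ubiquitin ligase, stood at 4.84, 21.3, 5.58 and 3.37 FPKM and ZNF516, a zinc finger factor, at 19.1, 10.2, 4.09 and 5.23 FPKM. Of MEX3C, PIGN and ZNF516, SW620 was the lowest line in MEX3C only. PHLPP1, a phosphatase of AKT, stood at 4.20, 7.72, 19.1 and 4.50 FPKM. By 2-fold against HCEC-1CT, HCT116 had 3 of the 12 higher and 2 lower, DLD-1 had 3 and 2, and SW620 had 0 and 3. Of all genes, 29.1%, 27.4% and 27.2% were 2-fold or more above HCEC-1CT in HCT116, DLD-1 and SW620, and 12.6%, 12.6% and 13.8% below it. Of the 127 long-arm genes, 36, 38 and 17 were above it and 19, 17 and 43 below.

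The other lists were mixed, and each holds so few genes that its counts are read only beside these shares. Of 11 genes listed for cell division, centrosomes and chromatids, 3, 6 and 3 were 2-fold or more above HCEC-1CT in the 3 cancer lines in the order given. Below it were 0, 1 and 1. The 6 in DLD-1 include SMCHD1, a chromatin protein, and RBBP8, a DNA end resection factor. SKA1, which couples kinetochores to microtubules, stood at 0.308, 2.98, 4.55 and 0.751 FPKM, and CEP76, a centriole protein of the short arm, at 2.58, 3.248, 15.2 and 3.54 FPKM. Of 15 transcription and chromatin factors, 3, 3 and 1 were higher and 2, 3 and 7 lower, and 13 of the 15 lie on the long arm. ZBTB7C was listed at 0, 0.299, 25.6 and 10.8 FPKM, NFATC1, a calcium-controlled factor, stood at 4.71, 10.5, 0.233 and 1.29 FPKM and ZNF532 at 20.6, 8.52, 1.33 and 5.44 FPKM. Of 13 genes listed as mitochondrial and metabolic enzymes, 3, 6 and 0 were higher and 1, 1 and 3 lower. One of the 6 is SEH1L, a nuclear pore protein and no enzyme. The short-arm gene ENOSF1 stood at 33.7, 3.59, 12.9 and 4.71 FPKM. Of 10 kinases, phosphatases and signalling genes, 0, 2 and 1 were higher and 1, 1 and 4 lower, with the receptor phosphatase PTPRM at 26.7, 10.7, 2.61 and 12.02 FPKM. Of 15 genes for membrane traffic, actin and lipids, 3, 6 and 4 were higher and 5, 4 and 5 lower. Of 11 genes listed for RNA and protein handling, 3, 5 and 1 were higher and 0, 0 and 1 lower. The 3 in HCT116 include PARD6G, a polarity protein. THOC1, of the mRNA export complex THO, stood at 10.1, 6.70, 27.7 and 5.45 FPKM. None of the 7 cadherin genes left on the chromosome reached the limit, though DSC3 stood at 3.23 FPKM in HCT116.

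Several members differed strongly between HCEC-1CT and all 3 cancer lines. At 4-fold or more, 3 members were higher in all 3 cancer lines, beside 3.26% of all genes, and 9 were lower, beside 3.43%; this is 1.67% and 5.00% of the 180 members. The 3 ratios share the HCEC-1CT library. The higher genes all lie on the long arm. MYO5B, a motor of apical membrane recycling in epithelia, stood at 0.0623, 18.5, 43.3 and 10.2 FPKM. MBP, known for myelin but also made in other cells, stood at 0.4005, 13.2, 14.8 and 8.21 FPKM, and PSTPIP2, which bends membranes, at 0.438, 6.01, 6.604 and 5.31 FPKM. HCEC-1CT was far below the cancer lines in each.

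The lower genes were led by serpins of clade B, a cluster of protease inhibitor genes at 63.6 to 64.0 Mb. SERPINB2, plasminogen activator inhibitor 2, was listed at 54.4, 0.265, 0 and 0 FPKM, SERPINB7 at 33.6, 0.213, 0 and 0 FPKM and SERPINB4 at 16.1, 0.0397, 0 and 0 FPKM. SERPINB8 stood at 6.72, 0.606, 3.58 and 0.480 FPKM. These 4 of the 9 listed serpin members reached the limit, and HCEC-1CT was the highest line for each. SERPINB2, SERPINB7 and SERPINB4 reached it only through HCEC-1CT, so for them the highest line was fixed by the limit. SERPINB4 has a near-identical neighbour, SERPINB3, at 1.20 FPKM in HCEC-1CT and listed at 0 elsewhere, so the division between them is uncertain. The other lower genes were COLEC12, a scavenger receptor, at 8.79, 0.0203, 0 and 0 FPKM and DSEL, an epimerase-like gene, at 11.4, 0, 0 and 0.982 FPKM. TCF4, an E protein transcription factor, stood at 9.04, 0.0207, 0.745 and 0.059968 FPKM. ZNF521 was listed at 4.76, 0.263, 0 and 0 FPKM and CCBE1, a gene of lymphatic growth, stood at 5.83, 0.504, 0.0412 and 0.0168 FPKM. COLEC12, DSEL, TCF4, ZNF521 and CCBE1 also reached the limit only through HCEC-1CT, so their highest line was fixed in the same way. RAB31, a GTPase of membrane traffic on the short arm, was listed at 58.8, 13.6, 0 and 1.19 FPKM. All 6 fibroblast markers were also highest in HCEC-1CT, at 104 FPKM or more each, while LUM stood at 24.5 FPKM in SW620 and COL1A1 at 12.1 FPKM in HCT116 and 3.00 FPKM in SW620. Their part in these differences was not tested.

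Against HCEC-1CT alone, 10 members were 4-fold higher and 14 lower in HCT116, beside 10.8% and 5.85% of all genes. In DLD-1 there were 16 and 14, beside 11% and 6.52%. In SW620 there were 14 and 26, beside 10.7% and 6.41%. As shares of the 180 members the lower counts are 7.78%, 7.78% and 14.4%. Of the 26 lower in SW620, 19 are among the 127 long-arm and 7 among the 53 short-arm genes, so the arms differed little in share at 4-fold. With libraries scaled by their median ratio the split was 7 and 18 in HCT116 and 13 and 19 in DLD-1.

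**Figure D5:**
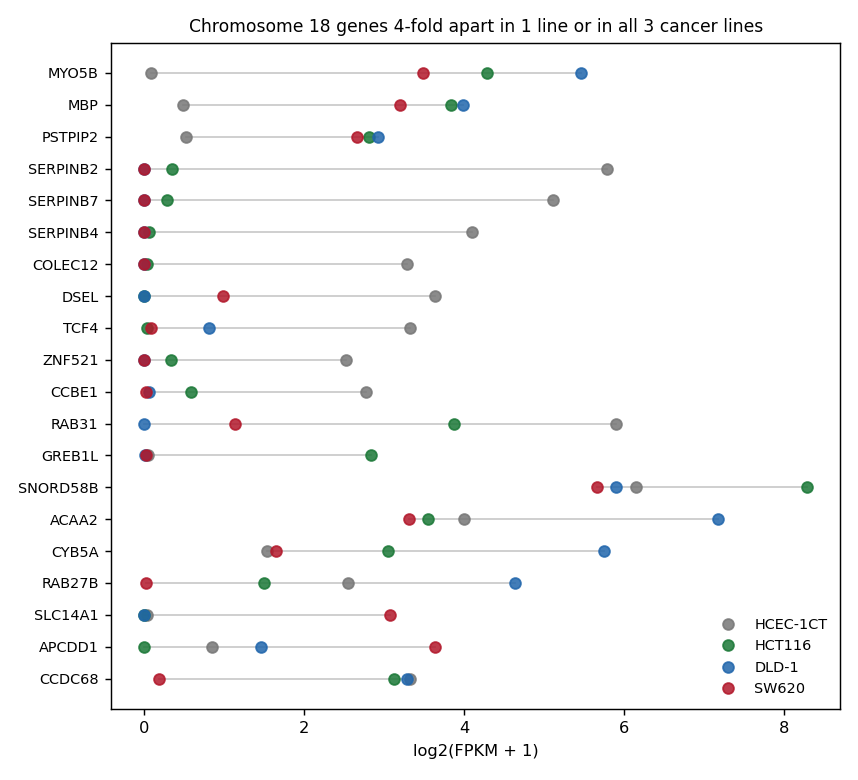
Level, as log2(FPKM + 1), in each of the 4 lines for 20 of the 21 genes that were 4-fold apart in all 3 cancer lines or in 1 line; each point is 1 library and the grey line joins the lowest and the highest. HCEC-1CT lies alone in the top 12 rows, and in CCDC68, the bottom row, SW620 lies near 0 with the other 3 lines together.

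At 4-fold, the shares of members that set a cancer line apart were near those of all genes. HCT116 lay above every other line in 2 members, DLD-1 in 4 and SW620 in 2. This is 1.11%, 2.22% and 1.11% of the 180 members, beside 1.46%, 1.81% and 1.85% of all genes. These lines lay below every other line in 0, 0 and 1 members, which is 0%, 0% and 0.556%, beside 0.235%, 0.672% and 0.457%. CCDC68, a centriole appendage protein (54901509 to 54959508, ENSG00000166510), stood at 9.05, 7.70, 8.74 and 0.133 FPKM, level in 3 lines and near 0 in SW620. Its neighbour RAB27B, a GTPase of secretory vesicles, stood at 4.87, 1.82, 23.8 and 0.00956 FPKM, highest in DLD-1 and lowest in SW620. DLD-1 also stood alone in ACAA2, a thiolase of fatty acid breakdown, at 14.98, 10.7, 144 and 8.88 FPKM, and in CYB5A, cytochrome b5, at 1.90, 7.26, 52.6 and 2.12 FPKM. HCT116 stood alone in GREB1L, at 0.0298, 6.10, 0.00490 and 0.0118 FPKM, and in the small nucleolar RNA SNORD58B, at 69.8, 313, 58.6 and 49.7 FPKM. GREB1L reached the mean of 1 FPKM only through HCT116. SNORD58B is short and lies within a host gene, so its FPKM is less certain. The calls at 4-fold lean on the pseudocount: with 5 in place of 1, the serpins SERPINB2, SERPINB4 and SERPINB7 and the genes SNORD58B, ACAA2 and CYB5A were among those that kept theirs, and 14 of 21 did not. With libraries scaled by their median ratio, RAB27B and SNORD58B no longer stood 4-fold above every other line.

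SW620 was the highest line in a few genes despite the low outer long arm. SLC14A1, a urea transporter at 45.7 Mb, was listed at 0.0202, 0, 0 and 7.38 FPKM. APCDD1, a Wnt inhibitor on the short arm, was listed at 0.791, 0, 1.74 and 11.4 FPKM. SLC14A1 and APCDD1 reached the mean of 1 FPKM only through SW620. Of the 8 outer long-arm genes in which SW620 stood relatively above both HCT116 and DLD-1, INO80C, of the INO80 remodelling complex, stood at 3.46, 8.38, 4.73 and 10.8 FPKM and C18orf32 at 5.81, 9.01, 4.72 and 16.4 FPKM. C18orf32 is joined to a neighbour by a readthrough gene, so its reads can be shared. The others were HNRNPA1P7, AC016866.3, SNORD58C, SERPINB4 and DSEL, of which 3 are not protein coding and SERPINB4 and DSEL were below 1 FPKM in all cancer lines.

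The most abundant members were on the short arm, followed by SNORD58B and LMAN1 of the long arm. MYL12B and MYL12A, regulatory light chains of nonmuscle myosin, stood at 110.2, 247, 260 and 323 FPKM and 125, 222, 155 and 331 FPKM, lowest in HCEC-1CT and highest in SW620. They are near-identical, so reads can be shared between them. TGIF1, a repressor of SMAD signalling, stood at 48.2, 63.7, 41.5 and 47.0 FPKM, and TWSG1, which binds BMPs, at 92.2, 25.2, 60.8 and 16.7 FPKM. The kinase YES1 stood at 47.0, 38.6, 36.9 and 18.8 FPKM, lowest in SW620. Among the 180 members the smallest range was in VAPA, a membrane tether of the endoplasmic reticulum, at 28.2, 28.0, 31.3 and 27.7 FPKM. ANKRD12 followed at 16.6, 18.4, 19.9 and 16.7 FPKM, then RNMT and ZBTB14, at 5.04, 6.21, 7.35 and 5.15 FPKM. These 4 lie on the short arm and the fifth, MIB1, on the inner long arm.

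Among other short-arm members the order of the lines differed from gene to gene, and SW620 also differed with position, as given above for the genes around LPIN2. LPIN2, a phosphatidate phosphatase, stood at 24.9, 6.61, 11.6 and 33.3 FPKM, highest in SW620. SMCHD1, a chromatin protein of X inactivation, stood at 27.5, 20.1, 56.3 and 17.97 FPKM.

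On the long arm the most abundant members were SNORD58B, LMAN1, ACAA2, AC100778.3, NARS and SCARNA17. LMAN1, a cargo receptor between the endoplasmic reticulum and the Golgi, stood at 167, 51.9, 60.7 and 33.5 FPKM, and NARS, the asparagine tRNA ligase, at 35.8, 43.03, 51.5 and 25.6 FPKM. SW620 was the lowest line in both. At the limit of 1 FPKM, AP005482.3, ZNF396 and AP005263.1 lay just inside, with means of 1.014, 1.03 and 1.09 FPKM. AC015563.2, SNORA37 and AP000919.1 lay just outside, with means of 0.996, 0.992 and 0.991 FPKM. Of the 180 members, 125 had at least 1 FPKM in all 4 lines and 15 in 1 line only, and the latter passed through the line in which they are high.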

How the data were processed

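RNA was measured in 1 library for each of 4 cell lines. The authors deposited FPKM values per gene and per transcript. HISAT2, FastQC and the build hg38 are named per the submitters' processing notes; the program that gave the FPKM, its annotation and strandedness: not given in the sources used here. Each file also had 1 value column that fits no sample here; it was left unused. Gene types and strands came from GENCODE 29 (GRCh38), which matched 1072 of 1075 members, 1044 with the same coordinates. Gene values were sums over transcripts (largest gap 2.5e-05 FPKM). Per-line medians, counts and order-statistic intervals (95%) were computed with pandas 2.3.3, numpy 2.4.6 and scipy 1.17.1, and the functions were tested on simulated data. Depth was read from genes with 1 transcript as FPKM times length, within a tolerance of 0.01 of a step. No replicates exist, so no test was run. The members and gene lists were chosen with earlier results of these data known. Of the genes that the naming rule gives, 2 are not reported here. Named genes were the 6 most abundant per arm, those 4-fold apart in all 3 cancer lines or in 1 line, up to 5 per list with the widest range, the ends of each arm, the 5 most even, and those at the limit. Genes along the low stretch and head-to-head pairs were chosen after their values were seen. Alternatives were pseudocounts of 0.1 and 5, other filters, median-ratio scaling, protein-coding genes, a 2-fold limit and the names left out put back.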

Additional observations from a re-analysis of the deposited data

Results flagged for a closer look

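RAB27B, a GTPase of secretory vesicles on the long arm, was 4-fold or more higher than in HCEC-1CT in DLD-1 and 4-fold or more lower in SW620. The log2 ratios against HCEC-1CT differed by 4.62 between the 2 lines. With 1 library per line the difference was not tested. The ratio of DLD-1 lies just past the limit, at a log2 of 2.08, and fell short of it with a pseudocount of 5 (1.547) and with median-ratio scaling (1.721). No other member at a mean of 1 FPKM or more moved 4-fold in opposite directions in 2 cancer lines.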

How the results depend on the processing

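No paired analysis was possible because each line has 1 library. Medians near 0 changed sign: that of the long arm for HCT116 against HCEC-1CT went from 0.015 to as low as -0.063, that for DLD-1 against HCEC-1CT from -0.007 to as high as 0.026, and that of the short arm for SW620 against HCT116 from 0.053 to as low as -0.035. The median deviation of SW620 before SS18 went from 0.038 to as low as -0.044. The long-arm medians of SW620 against HCEC-1CT, HCT116 and DLD-1 stayed below 0 under every alternative except the one without a filter. There they were 0.000, 0.000 and 0.000, and the short-arm median of SW620 against HCEC-1CT was 0.000, since most members are listed at or near 0. A pseudocount of 0.1 gave -0.873 against HCT116 and -1.126 against DLD-1, and one of 5 gave -0.444, -0.422 and -0.548. Counts of members at 4-fold depended on the settings. With a pseudocount of 0.1, 24 were higher in HCT116, 27 in DLD-1 and 9 in all 3 cancer lines; HCT116 lay above the rest in 5 and below in 1, DLD-1 above in 8 and below in 5, and SW620 below in 3. With a pseudocount of 5, the counts higher and lower were 2 and 4 in HCT116, 6 and 6 in DLD-1, 1 and 6 in SW620, and 0 and 3 in all 3; HCT116 lay above the rest in 1, and SW620 above in 0 and below in 0. At a mean of 5 FPKM, 6 and 5 were higher and lower in HCT116, 5 lower in DLD-1, 9 and 15 higher and lower in SW620 and 3 lower in all 3, with 1 above the rest in HCT116 and 0 in SW620. At 1 FPKM in every line, 4, 7 and 6 were higher and 2, 2 and 10 lower, 0 and 0 in all 3, with 1 above the rest in HCT116, and 0 above and 0 below in SW620. Without a filter HCT116 lay above the rest in 3 members, and in 1 with median-ratio scaling or protein-coding genes alone. At 4-fold the balance of higher and lower members in HCT116, 10 to 14, became 24 to 18 with a pseudocount of 0.1, and that in DLD-1, 16 to 14, became 13 to 19 with median-ratio scaling. At 2-fold, 44, 52 and 26 were higher and 29, 28 and 52 lower, 11 and 16 in all 3; HCT116 lay above the rest in 13, DLD-1 above in 23 and below in 4, SW620 above in 3 and below in 18. HCEC-1CT set apart gives the same genes as all 3 cancer lines together. Stricter filters test fewer genes; otherwise the cause was not tested. Set against HCT116 and DLD-1 without HCEC-1CT, an alternative chosen after seeing the data, the median of SW620 was -0.875 from SS18 outward. Counting error at these depths is small beside a 2-fold difference at 1 FPKM in a transcript of 2 kb; having 1 library per line is the limit.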
